A study of Mus musculus with 24 samples.

Results

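Apart from a pseudogene, the 7 genes described here code for subunits or helper proteins of the mitochondrial respiratory chain or of the inner membrane that holds it. The genes are Ndufs5, its pseudogene Ndufs5-ps, Ndufaf5, Sdhb, Cox7a1, Dnajc19 and Taz. They were chosen by symbol because reporters of these genes stood in the authors' deposited tables of E4F1 knockout against control cells. The knockout effects of these genes below are therefore descriptions of that choice. Their limma calls and adjusted p-values are given further on for comparison only, and nothing is read from them. The genes have 30 reporters, which are oligonucleotide spots, out of 137488 on the array, and 25 of the 30 are in at least 1 of the authors' deposited tables. Of these 7 genes, 4 are listed for p53-/- cells and all 7 for cells that also carry Ha-RasV12. Reporters could be named for 4413 genes in all.

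The respiratory chain passes electrons from complex I (NADH) and complex II (succinate) through complex III to complex IV (cytochrome c oxidase), and the proton gradient it builds drives the ATP synthase. Nearly all subunits are encoded in the nucleus and enter through import machines of the inner membrane, whose lipid cardiolipin holds the complexes together. Ndufs5 is an accessory subunit of complex I, Ndufaf5 an assembly factor of complex I, Sdhb the iron-sulfur subunit of complex II and Cox7a1 the heart and muscle form of a small complex IV subunit. Dnajc19 is a co-chaperone of the import motor of the inner membrane, and Taz (tafazzin) remodels the acyl chains of cardiolipin.

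The cells were mouse embryonic fibroblasts (MEFs) from 13.5-day embryos of a mixed C57BL/6 and 129Sv/J background, harvested 3 days after infection with a retrovirus that carries a CRE recombinase and then excises itself. All 4 groups lacked p53. Controls were E4F1 +/- and knockouts E4F1 -/-, both in p53-/- MEFs and in p53-/-, Ha-RasV12 MEFs, which also express an activated Ras oncogene. CRE was therefore given to controls too, the controls kept a single E4f1 allele, and no group had intact p53 or untouched E4f1. E4F1 is a zinc finger protein first described as a cellular factor that binds the adenovirus E4 promoter, and the comparison asks which transcripts depend on it without p53 and in transformed cells. Each group had 3 replicates, and each replicate's knockout and control RNA shared 2 two-colour arrays with the dyes exchanged, which makes 24 samples on 12 arrays. Values are log2 signals averaged over both dyes for each of the 12 RNA extracts. The 3 replicates of a group are called A, B and C as in the labels, and spread between them may be partly technical. In extracts of whole cultures, fewer cells of a kind and less RNA per cell cannot be told apart.

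The deleted gene checked the labels. The brightest of 6 E4f1 reporters read 7.95, 7.62 and 8.05 in p53-/- controls against 6.57, 6.69 and 6.52 in p53-/- knockouts. It read 8.70, 8.23 and 7.95 in Ha-RasV12 controls against 6.74, 6.08 and 6.09 in Ha-RasV12 knockouts, so every knockout lay below its control. Reporters of random sequence gave a median of 5.66 and a 95th percentile of 6.41, which is the yardstick for background used here. With the dimmest reporters left out, log2 ratios of the 2 dye orientations of 1 replicate correlated at between -0.06 and 0.06 in p53-/- cells and between 0.50 and 0.71 in Ha-RasV12 cells. Of 7 fibroblast markers, the 3 with a named reporter (Col1a1, Col3a1 and Pdgfra) were above the random reporters, but Col1a1 read 9.40 in Ha-RasV12 controls against 12.66 in p53-/- controls. The log2 of the 3 markers' summed linear signals was 14.81 to 15.47 in Ha-RasV12 controls and 12.81 to 13.64 in Ha-RasV12 knockouts. The brightest marker weighs most in such a sum. In the Ha-RasV12 knockouts Col3a1 fell by 1.99 (limma, adjusted p = 0.006), and Col1a1 and Pdgfra gave 0.76 and 0.42 (limma adjusted p = 0.16 and 0.83). In p53-/- cells the sums were 14.75 to 14.91 in controls and 15.11 to 15.22 in knockouts. The part of these markers in the Ha-RasV12 values below was not tested. Replicate A stood apart among the Ha-RasV12 replicates: without it, the reporters called for the knockout effect in these cells (limma, adjusted p under 0.05) went from 3061 to 5858 of 132488.

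The promoters of the members were read from RefSeq on GRCm38.p6, as windows of 250 bases before to 50 after the start point that the RefSeq promoter table uses, and 6 of the 7 genes matched (Ndufs5-ps did not). That point is the first base of the annotated gene for Ndufs5, Dnajc19, Sdhb and Cox7a1, but lies 62 bases inside the gene for Ndufaf5 and 818 bases inside it for Taz, so the Taz stretch is not the region before the annotated gene. The stretches before the start point are shown for the 3 protein-coding genes that were lower in both kinds of cells, because E4F1 binds DNA and these genes had the largest differences.
Ndufs5, chr4:123718187-123718436, minus strand: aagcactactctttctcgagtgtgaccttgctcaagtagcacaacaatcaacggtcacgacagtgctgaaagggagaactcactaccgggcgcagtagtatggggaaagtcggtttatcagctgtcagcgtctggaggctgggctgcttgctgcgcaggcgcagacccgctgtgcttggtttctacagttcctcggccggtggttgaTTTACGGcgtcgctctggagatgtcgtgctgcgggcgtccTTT
Dnajc19, chr3:34081355-34081604, minus strand: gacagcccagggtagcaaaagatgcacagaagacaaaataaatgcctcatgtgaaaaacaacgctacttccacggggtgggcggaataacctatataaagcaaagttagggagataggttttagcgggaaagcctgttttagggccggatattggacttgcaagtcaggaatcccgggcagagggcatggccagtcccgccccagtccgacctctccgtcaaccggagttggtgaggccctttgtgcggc
Taz, chrX:74282468-74282717, plus strand: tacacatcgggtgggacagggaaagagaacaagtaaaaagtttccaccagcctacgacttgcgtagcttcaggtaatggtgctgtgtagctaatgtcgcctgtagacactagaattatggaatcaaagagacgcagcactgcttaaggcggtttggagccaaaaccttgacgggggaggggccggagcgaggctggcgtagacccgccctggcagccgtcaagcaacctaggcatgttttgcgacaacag

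Capitals mark the letters TTTACGG, which were chosen after the sequences had been seen. On either strand they occur 2 times in the Ndufs5 window, at 43 bases before the start and across it, and 1 time in the Dnajc19 window, 26 bases after the start. The 30 bases around the latter pair of matches are shown to place them.
Ndufs5, chr4:123718172-123718201, minus strand: ctgcgggcgtccTTTACGGcaggcgtctgc
Dnajc19, chr3:34081312-34081341, minus strand: gttccgacgcacTTTACGGcgccgctgccg
These letters are in 2 of the 6 windows and in 0.965% of all 32851 promoter windows of this length. The letters TGACGT, the core shared by sites of the ATF family and by E4F-type sites, were searched on both strands as well and are in 0 of the 6 windows against 7.51% of all windows. The longer forms that contain this core, TGACGTCA and TGACGTAA, are in 1.79% and 0.499% of all windows. The GC content of the stretches before the start is 56.4% for Ndufs5, 53.2% for Dnajc19 and 53.6% for Taz, against a median of 52.4% over all windows. A match or its absence in these letters says nothing about binding.

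Ndufs5 signals lay far below control in both kinds of knockout cells. The brightest of its 3 reporters read 13.25, 12.92 and 13.79 in p53-/- controls and 10.88, 10.67 and 11.69 in p53-/- knockouts. It read 13.33, 13.15 and 13.18 in Ha-RasV12 controls and 9.89, 10.04 and 10.09 in Ha-RasV12 knockouts. Control and knockout extracts were far apart in both, and the Ha-RasV12 knockouts lay lowest of all 12. The knockout minus control difference was -2.24 ± 0.14 (SD, n = 3) in p53-/- cells, which leaves 21.2% of the control signal. In Ha-RasV12 cells the difference was -3.21 ± 0.20 (SD, n = 3), or 10.8% of the control signal. All 3 Ndufs5 reporters gave nearly the same values, between -2.24 and -2.21 in p53-/- cells and between -3.25 and -3.14 in Ha-RasV12 cells. On the brightest reporter the Ha-RasV12 difference was larger by 0.98 (fitted difference -0.98, SE 0.21), which was not tested. The replicates of the 2 cell kinds did not overlap on any of the 3 reporters, which read the same extracts. How many of all reporters are separated in this way was not counted, so nothing is read from it.

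The pseudogene Ndufs5-ps, annotated by RefSeq as transcribed and on chromosome 16 rather than chromosome 4, followed Ndufs5 closely. Its 3 reporters gave differences between -2.32 and -2.19 in p53-/- cells and between -3.21 and -3.11 in Ha-RasV12 cells. The mean over 3 Ndufs5 reporters minus the mean over 3 Ndufs5-ps reporters was 0.18, -0.04 and -0.02 in p53-/- replicates A, B and C. In Ha-RasV12 cells it was 0.02, -0.10 and -0.03, so the ratios of the pair differed by at most 0.18 in any replicate. A pseudogene shares much of its sequence with its parent, and the reporters may bind RNA from either. The values are therefore uncertain as separate measurements of 2 genes.

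**Figure D1:**
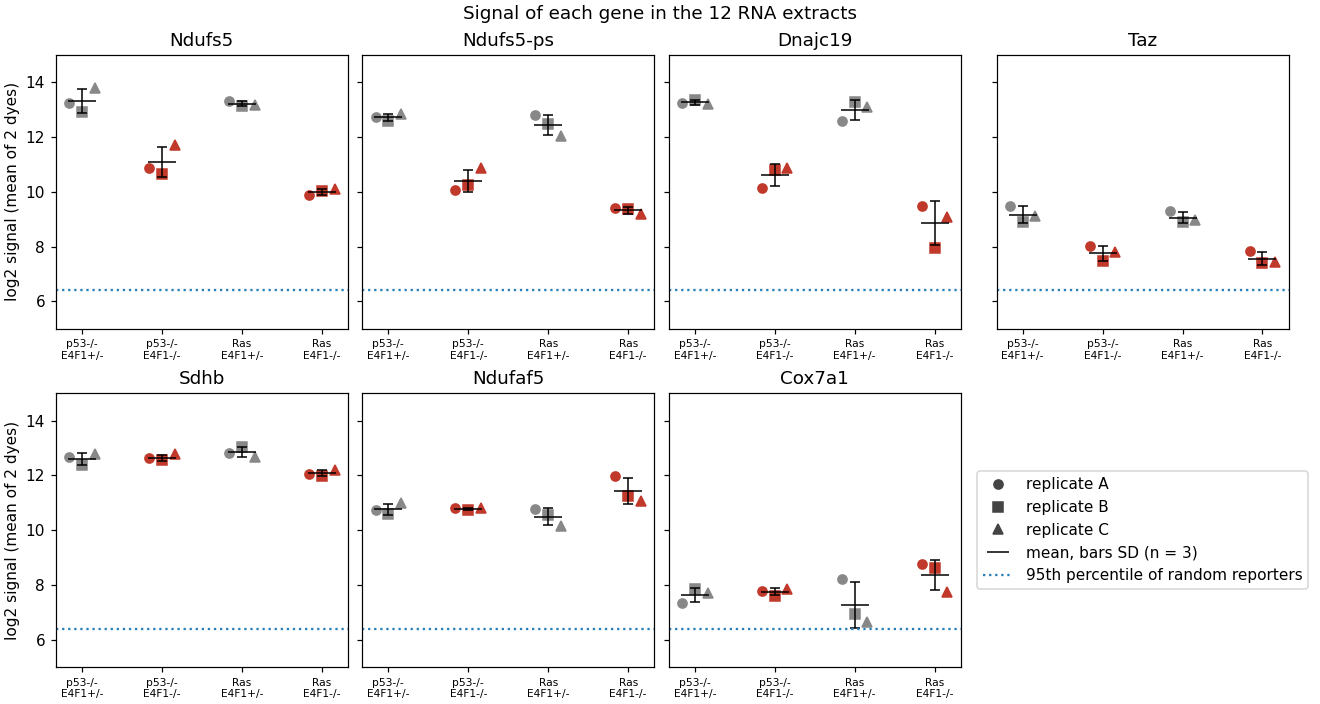
Log2 signal (mean of both dyes) of 1 reporter for each of the 7 genes in the 12 RNA extracts; grey symbols are E4F1 +/- controls, red symbols E4F1 -/- knockouts, bars are mean and SD (n = 3), and the dotted line is the 95th percentile of random reporters (6.41). Ndufs5, Ndufs5-ps, Dnajc19 and Taz are lower in the knockouts of both kinds of cells, Sdhb in Ha-RasV12 knockouts, and Ndufaf5 and Cox7a1 are higher in Ha-RasV12 knockouts.

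Ndufaf5, which was deposited under an older RIKEN symbol and lies on chromosome 2, was higher in Ha-RasV12 knockouts and near its control level in p53-/- knockouts. The reporter with the smallest p in the authors' deposited table read 10.77, 10.56 and 10.15 in Ha-RasV12 controls and 11.99, 11.25 and 11.07 in Ha-RasV12 knockouts. It read 10.75, 10.58 and 10.99 in p53-/- controls against 10.81, 10.75 and 10.80 in p53-/- knockouts. The 3 Ha-RasV12 knockouts were above all 9 other extracts. The difference was 0.94 ± 0.27 (SD, n = 3) in Ha-RasV12 cells and 0.01 ± 0.18 (SD, n = 3) in p53-/- cells. Its 3 reporters spanned 0.87 to 0.97 in the former and 0.01 to 0.26 in the latter, and replicate A gave the largest Ha-RasV12 ratio on each of the 3.

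Sdhb, on chromosome 4 like Ndufs5, was lower in Ha-RasV12 knockouts by less. The 1 listed reporter read 12.83, 13.04 and 12.68 in Ha-RasV12 controls and 12.04, 12.00 and 12.22 in Ha-RasV12 knockouts. In p53-/- cells it read 12.68, 12.37 and 12.78 in controls and 12.63, 12.55 and 12.77 in knockouts. The groups were separate in the former and interleaved in the latter. The listed reporter gave -0.76 ± 0.29 (SD, n = 3) in Ha-RasV12 cells, or 58.9% of the control signal. The brighter 2 reporters, which are in none of the authors' deposited tables, gave -0.51 ± 0.20 and -0.33 ± 0.29 (SD, n = 3). Each of the 3 reporters was lower in all 3 Ha-RasV12 replicates. In p53-/- cells the same reporters gave between 0.04 and 0.20.

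Cox7a1, on chromosome 7, was higher in Ha-RasV12 knockouts. Its brightest reporter read 8.23, 6.95 and 6.64 in Ha-RasV12 controls and 8.78, 8.61 and 7.75 in Ha-RasV12 knockouts. It read 7.33, 7.85 and 7.72 in p53-/- controls and 7.77, 7.61 and 7.86 in p53-/- knockouts. The control of Ha-RasV12 replicate A was above the knockout of replicate C, so these groups overlapped, although each knockout was above its own control. The ratios of replicates A, B and C were 0.54, 1.66 and 1.11, a mean of 1.10 ± 0.56 (SD, n = 3). The other 2 Cox7a1 reporters gave 0.83 and 0.71, and in p53-/- cells the 3 reporters gave -0.08 to 0.12. Without replicate A the difference in Ha-RasV12 cells was 1.38.

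Cox7a1 is also known as a gene of brown fat, and the brown fat marker Ucp1 rose in the same cells. Of 9 such markers 3 had a named reporter (Ucp1, Pparg and Fabp4). The log2 of their summed linear signals ranged from 9.86 to 10.83 in p53-/- controls and from 10.02 to 11.17 in p53-/- knockouts. It ranged from 11.81 to 13.79 in Ha-RasV12 controls and from 13.05 to 13.15 in Ha-RasV12 knockouts. Ucp1, the uncoupling protein of brown fat, averaged 5.74 and 5.76 in p53-/- controls and knockouts, at the level of random reporters, and rose from 9.13 to 12.51 in Ha-RasV12 cells (limma, difference 3.37, SE 0.18, adjusted p = 5.73e-05). Pparg gave 0.88 (adjusted p = 0.10) and Fabp4 -0.99 (adjusted p = 0.11) in the same limma comparison. Of 8 striated muscle markers 3 were named, and Acta1 rose by 1.14 there (limma, adjusted p = 0.015), whereas Des gave -0.07 and Myh3 -0.16 (limma adjusted p = 0.91 and 0.73). Of 5 epithelial markers 2 were named, and they went opposite ways. The log2 of their summed linear signals was 11.37 to 14.20 in Ha-RasV12 controls and 10.60 to 11.46 in Ha-RasV12 knockouts. Epcam rose by 0.86 (limma, adjusted p = 0.024), whereas Krt19 gave -1.81 (limma, adjusted p = 0.22) with replicate ratios of -4.50, -0.28 and -0.64. The 3 named blood cell and neural markers were not called in these cells, and no endothelial marker was named. The part of any marker list in the Cox7a1 values was not tested.

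Dnajc19, on chromosome 3, had the largest difference of the 7 genes, on 1 of its 3 reporters. That reporter read 13.25, 13.37 and 13.19 in p53-/- controls and 10.14, 10.79 and 10.89 in p53-/- knockouts. It read 12.59, 13.28 and 13.09 in Ha-RasV12 controls and 9.50, 7.96 and 9.09 in Ha-RasV12 knockouts. Every knockout lay more than 2 log2 units below every control of the same cell kind. The difference was -2.67 ± 0.41 (SD, n = 3) in p53-/- cells, which leaves 15.7% of the control signal, and -4.14 ± 1.13 (SD, n = 3) in Ha-RasV12 cells, which leaves 5.67%. The difference of Ha-RasV12 replicate B was -5.33 against -3.09 for replicate A, so the size in these cells is less certain, and A overlapped the p53-/- replicates. The other 2 reporters averaged 6.14 and 5.67 over all samples, below the 95th percentile of random reporters. They gave between -0.20 and 0.26, and there is no second reporter above background for Dnajc19.

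**Figure D2:**
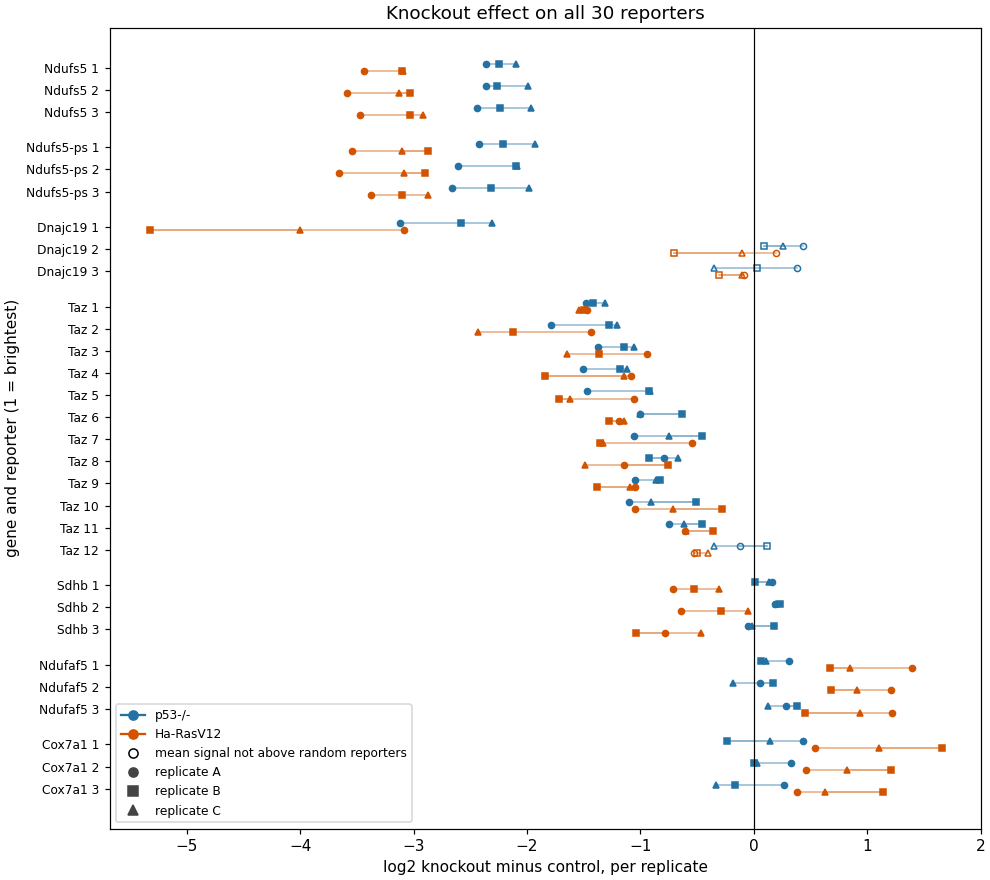
Log2 knockout minus control for each of the 30 reporters, numbered within a gene from the brightest, with 1 symbol per replicate in p53-/- cells (blue) and Ha-RasV12 cells (orange); open symbols mark reporters not above random reporters. The 6 reporters of Ndufs5 and its pseudogene lie together between -3.25 and -2.19 on average, whereas Dnajc19 shows a difference on its brightest reporter alone.

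Taz, on the X chromosome, was the gene with most reporters, 12 designed on 4 transcript records, of which 11 were above the random reporters. The brightest read 9.50, 8.89 and 9.10 in p53-/- controls and 8.02, 7.47 and 7.79 in p53-/- knockouts. It read 9.29, 8.90 and 8.97 in Ha-RasV12 controls and 7.82, 7.40 and 7.43 in Ha-RasV12 knockouts. The 2 cell kinds looked alike, with no overlap of knockout and control in either. The difference was -1.40 ± 0.08 (SD, n = 3) and -1.50 ± 0.04 (SD, n = 3), or 37.8% and 35.4% of the control signal. These SDs are of ratios averaged over the dyes, and the fitted SE was 0.14 in each. The 2 dye orientations lay further apart in Ha-RasV12 cells. They gave -1.99 and -0.94 in replicate A, -1.61 and -1.38 in B, and -1.27 and -1.81 in C. In p53-/- replicate B they gave -1.16 and -1.68. On this reporter the Ha-RasV12 difference minus the p53-/- difference was -0.10 (SE 0.20), while the second brightest gave -0.57 (SE 0.30). All 12 Taz reporters averaged below control in both kinds of cells, from -1.42 to -0.12 in p53-/- cells and from -1.99 to -0.48 in Ha-RasV12 cells.

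Reporters of Taz with a higher control signal gave larger differences. Over the 12 reporters, the mean control signal and the log2 difference correlated with Pearson's r of -0.970 and Spearman's rho of -0.902 in p53-/- cells. In Ha-RasV12 cells r was -0.880 and rho -0.944. These points share 1 transcript family and the same extracts, and the control signal enters both axes, so the coefficients describe the reporters only. The dimmest reporter, with a mean control signal of 6.21 in p53-/- cells and 5.94 in Ha-RasV12 cells, was at the level of random reporters. In both kinds of cells, dim Taz reporters gave smaller differences than bright ones for transcripts of 1 gene.

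**Figure D3:**
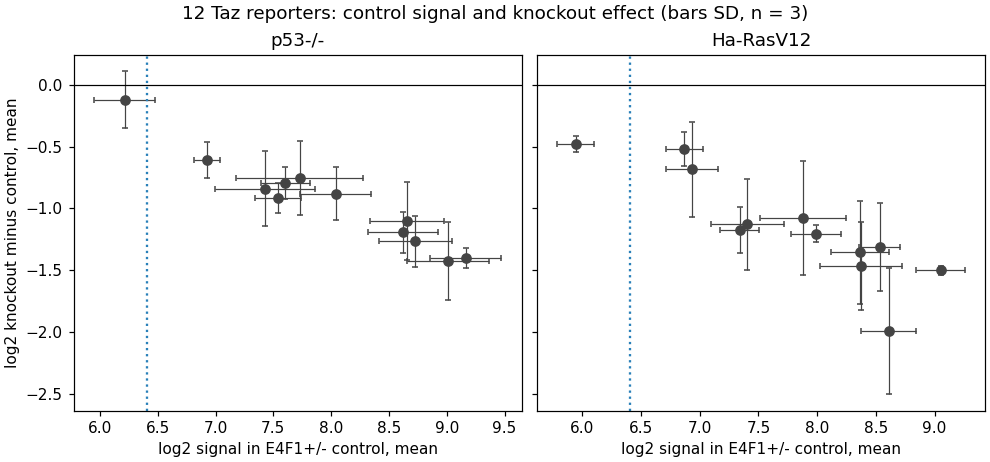
Mean log2 signal in E4F1 +/- controls (horizontal axis) and mean log2 knockout minus control (vertical axis) for the 12 Taz reporters in p53-/- cells (left) and Ha-RasV12 cells (right); bars are SD (n = 3) and the dotted line is the 95th percentile of random reporters. Differences reach from -0.12 and -0.48 at the dimmest reporter to -1.42 and -1.99.

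In the fit of the deposited signals, 7 of the 30 member reporters were past the threshold in p53-/- cells (limma, Benjamini-Hochberg adjusted p under 0.05), all lower, against 0.0211% of all 132488 reporters called and 0.0174% called lower. They were the 6 of Ndufs5 and Ndufs5-ps and 1 of Taz. In Ha-RasV12 cells 22 were, 17 lower and 5 higher, from all 7 genes, against 2.31% of all reporters called, 0.873% lower and 1.44% higher. Knockout and control replicates did not overlap for 19 member reporters in p53-/- cells and 25 in Ha-RasV12 cells, against 6.19% and 9.01% of all reporters. The genes were chosen for these differences, so nothing is read from the counts. The authors' deposited limma tables list 17 and 23 of the member reporters, against 0.372% and 3.55% of all reporters. In the authors' deposited limma table for p53-/- cells, Dnajc19 is the seventh reporter, whereas in the fit here, with dye swaps averaged and both cell kinds sharing 1 estimate of the spread, its adjusted p was 0.076. Just inside the authors' deposited threshold were a Taz reporter in p53-/- cells (adjusted p 0.0477, log2 difference -0.61) and a Cox7a1 reporter in Ha-RasV12 cells (adjusted p 0.0441, log2 difference 0.71). Another Taz reporter, at -0.76 in p53-/- cells, is not in the authors' deposited limma table, so its adjusted p there is not known. The authors' deposited SAM tables list it with a q of 0.0843, against 0.0888 for the Taz reporter at -0.61. These q-values are not on the scale of the limma threshold.

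The level of these genes in E4F1 +/- controls was also compared between the 2 cell kinds. This contrast was not used to choose them and was tested. The same control samples do enter the knockout effects that were used, so the test is not fully separate from the choice. Of the 30 member reporters, 0 were called (limma on the 12 extracts, adjusted p under 0.05), against 3.72% of all reporters. An unadjusted p under 0.05 was found for 0 of the 30, against 21443 of all 132488 reporters. The smallest adjusted p was 0.34. The median over all reporters was itself -0.13 for Ha-RasV12 minus p53-/-. Ndufs5 differed by -0.10 (95% interval -0.69 to 0.49), Ndufs5-ps by -0.28 (-0.80 to 0.24), Dnajc19 by -0.28 (-1.02 to 0.45) and Taz by -0.11 (-0.60 to 0.38) on the reporters shown above. Sdhb differed by 0.24 (-0.16 to 0.64), Ndufaf5 by -0.27 (-0.81 to 0.26) and Cox7a1 by -0.36 (-1.14 to 0.43). The intervals allow differences of more than 0.3 in at least 1 direction for every gene. Of the 30, 26 lay below 0 as deposited, 21 after quantile normalization and 17 after centring each sample on its median, and Ndufs5 and Taz changed sign with centring (0.07 and 0.06).

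The other genes of the respiratory chain and inner membrane were looked up in 10 lists with 186 entries, of which 48 could be named on the array. Apart from the members there were 42, and 41 of them were named because the authors' deposited tables list them, so they are no sample of their lists. In p53-/- cells 0 of the 42 were called (limma), against 0.159% of the 4413 named genes. An unadjusted p under 0.05 was found for 1 of the 42, Crls1, against 3947 of all 132488 reporters. The median difference of the 42 was 0.05, against -0.01 for all named genes. In Ha-RasV12 cells 8 of the 42 were called, and only this share in either direction was close to the 19.3% of named genes called. By direction, 1 was higher and 7 lower, whereas named genes were called higher (12.2%) more often than lower (7.12%). Their median was -0.22, against 0.22 for all named genes.

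Among complex I subunits, 1 of 8 other genes was called in Ha-RasV12 cells: Ndufa13 at -0.76 (SE 0.16, limma adjusted p = 0.043), on a reporter with a mean of 6.49 that is barely above the random ones. The other 7 went from -0.65 to 0.69, and the 8 together had a median of 0.07, where Ndufs5 was at -3.21. None of the 5 other complex I assembly factors was called (limma), and their median was 0.45. Of these 5, 3 had an unadjusted p under 0.05, against 18613 of all 132488 reporters, but all 5 were named because the authors' deposited tables list them. The next in size to Ndufaf5 was Ndufaf6, at 0.90 (adjusted p = 0.096 by limma), named after its value was seen. For complex II the named genes other than Sdhb were the assembly factors of the complex Sdhaf2 at -0.76 and Sdhaf4 at -0.61 (limma adjusted p = 0.065 and 0.086). For complex III and cytochrome c 0 of 5 genes were called (limma, 3 with an unadjusted p under 0.05), between -0.62 and 0.66. These 5 were also named because the authors' deposited tables list them, so nothing is read from either unadjusted count. For complex IV the 1 other named subunit was Cox6b2, whose Ha-RasV12 ratios were -0.47, 3.38 and 2.48, with replicate A below 0 and the other 2 above it (difference 1.80, limma adjusted p = 0.16).

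**Figure D4:**
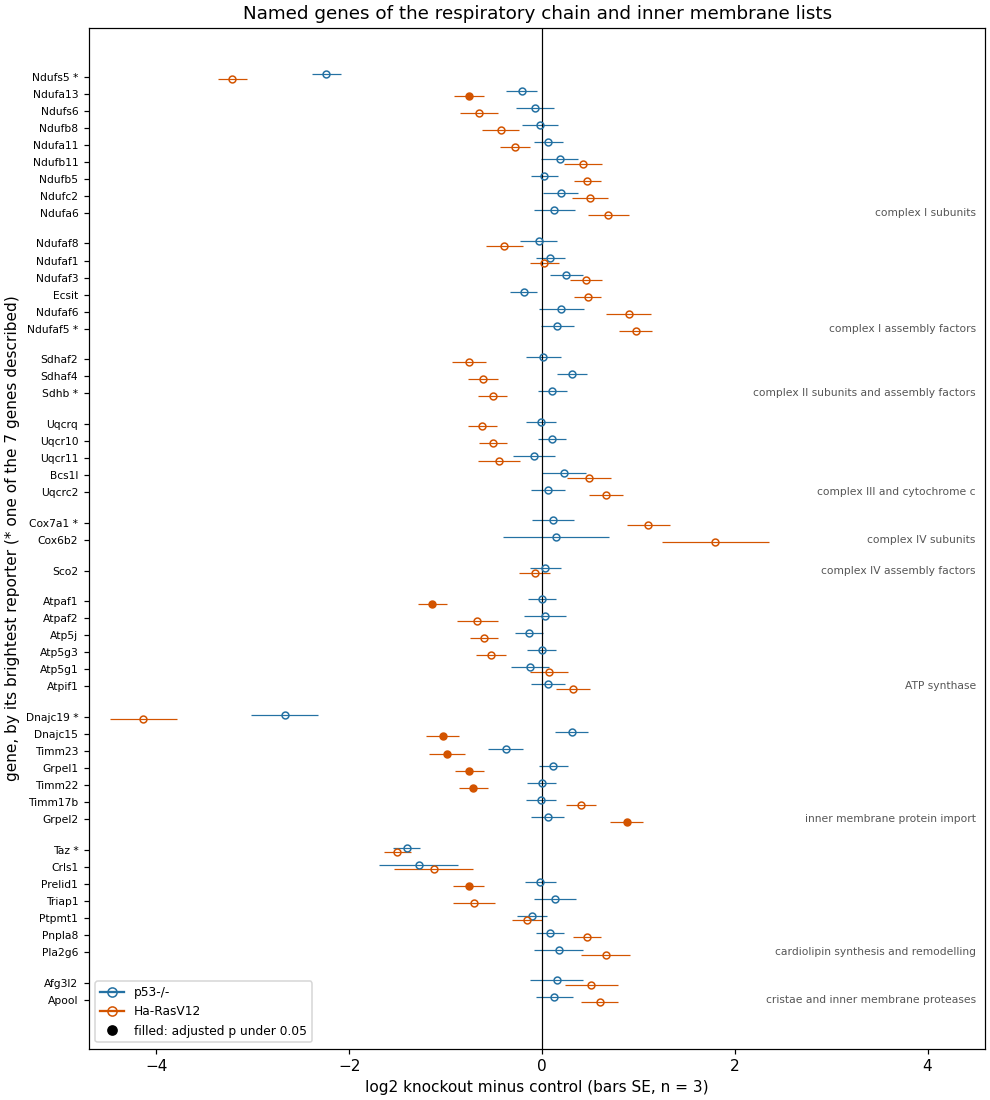
Log2 knockout minus control with SE (n = 3) of the 48 named genes of the 10 lists, by their brightest reporter, in p53-/- cells (blue) and Ha-RasV12 cells (orange); filled symbols have an adjusted p under 0.05, shown for genes other than the 7 described (marked with an asterisk). In p53-/- cells the other genes lie between -1.28 and 0.31, and Ndufs5, Dnajc19 and Taz lie at -2.24, -2.67 and -1.40.

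Around Dnajc19, 5 of 6 other genes of inner membrane import were called in Ha-RasV12 cells by limma, 4 lower and 1 higher. Of all named genes 19.3% were called, 7.12% lower and 12.2% higher. All 6 were named because the authors' deposited tables list them, so nothing is read from this count. Dnajc15, a second J-domain co-chaperone of the motor, was at -1.03 (SE 0.17, adjusted p = 0.016 by limma), and Timm23, the import channel, at -0.99 (SE 0.18, adjusted p = 0.027). The nucleotide exchange factors of the motor went opposite ways, Grpel1 at -0.75 and Grpel2 at 0.88 (adjusted p = 0.035 for each by limma). Timm22, the channel for carrier proteins, was at -0.71 (limma adjusted p = 0.043) and was named after its value was seen. Elsewhere the ATP synthase assembly factor Atpaf1 was at -1.14 (SE 0.15, limma adjusted p = 0.005) and Prelid1, which carries phosphatidic acid between the membranes, at -0.76 (limma adjusted p = 0.044). These 8 calls were sensitive to the fit: 1 of the 42 genes was called without the replicate block, Atpaf1, and 1 with all reporters of a gene averaged, Dnajc15. Leaving out any p53-/- replicate or Ha-RasV12 replicate C also left Atpaf1 alone, leaving out Ha-RasV12 replicate B left 3, and leaving out Ha-RasV12 replicate A gave 9.

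Beside Taz in the cardiolipin list, Crls1, the cardiolipin synthase, was singled out after its values were seen. Its p53-/- ratios were -1.23, -1.32 and -1.30, a difference of -1.28 (SE 0.41, limma adjusted p = 1.00), and its Ha-RasV12 ratios were 0.53, -2.13 and -1.78, a difference of -1.13 (limma adjusted p = 0.24). Replicate A of the Ha-RasV12 cells went against the other 2. Without it, Crls1 was called in both, at -1.28 (limma adjusted p = 0.011) and -1.95 (limma adjusted p = 0.0002). The level in controls differed between the cell kinds for 2 of the 42 list genes by limma, Timm17b at -0.69 (adjusted p = 0.045) and Apool, a cristae protein, at -1.0 (adjusted p = 0.024), against 13.0% of named genes called.

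The genes whose signals followed a member most closely over the 12 extracts were found among 17198 named reporters. The extracts fall into 4 groups, and most reporters carry a name because the authors listed them. Likeness among genes chosen for low or high knockout signals restates that choice. For Ndufs5 the nearest were Ndufs5-ps (Pearson's r 0.989), Pbrm1 (0.980) and Senp8 (0.979). For Ndufs5-ps they were Ndufs5 (0.999), Mrpl15 (0.981) and Taz (0.979, on a reporter other than the one shown). For Dnajc19 they were Eef1g (0.981), Mrfap1 (0.978) and Mrpl15 (0.973), and for Taz they were Zfp945 (0.970), Ipo8 (0.968) and Senp8 (0.961). Mrpl15, a protein of the mitochondrial ribosome, and Senp8 each appear for 2 members. Ndufaf5, Sdhb and Cox7a1 had other neighbours. For Ndufaf5 these were Vps37a (0.970), Gngt2 (0.962) and Jph4 (0.960). For Sdhb they were Ttc33 (0.975), Mir22hg (0.969) and Pitpna (0.963), and for Cox7a1 Grpel2 (0.974), Rpl18 (0.970) and Mrpl23 (0.968).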

How the data were processed

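RNA of 12 extracts was measured on 12 two-colour arrays. The deposited value table holds linear intensity per channel, already processed by the authors. How its background was corrected and how it was normalized is not stated in the labels or headers. The within-array log2 ratio of knockout over control, averaged over the arrays of a background, equals the log2 fold change of the authors' deposited tables, which settles scale and direction. The t statistics in the authors' deposited tables are scores, and their p-values and q-values are quoted as deposited. The authors used limma, per the submitters' processing notes.

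Intensities were taken to log2. For knockout effects, ratios of the 2 arrays of a replicate were averaged and fitted with limma 3.58.1 (R 4.3.3) for both backgrounds together; control levels were fitted on the 12 extracts. P-values were adjusted over 132488 reporters (5000 random reporters left out), with a threshold of 0.05. The knockout and control of a replicate share arrays, so the ratio is a block by construction. Their deviations from the group means correlated at 0.66, 0.63 and 0.63 in p53-/- replicates A, B and C. In Ha-RasV12 replicates A, B and C they correlated at 0.29, -0.16 and 0.48, so this pairing was weaker there and absent in B. Replicate letters do not pair the backgrounds: deviations of same-letter controls correlated at 0.04, -0.08 and 0.11. Reporters were named through the authors' tables (14789) or RefSeq accessions (2409), and the other reporters were not analysed by gene.

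Each list gene was represented by its reporter of highest mean signal. The rule for named genes took all members, E4f1, up to 4 called genes per list and comparison, and the 3 genes most alike to each member. The signals shown are those of the reporter with the smallest p in the authors' deposited limma tables. The members and lists were chosen with earlier results of these data known. The fit was tested on simulated data. No depth applies to arrays; their number limits the precision. Alternatives were the fit without the block, arrays as independent, a dye term, quantile and median scaling, a filter on dim reporters, other reporter choices and each replicate left out. Python 3.11.15 served for the rest.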

Additional observations from a re-analysis of the deposited data

Results flagged for a closer look

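2 Sdhb reporters went opposite ways in every replicate of the 2 cell kinds, higher in p53-/- knockouts and lower in Ha-RasV12 knockouts. The Ha-RasV12 effect minus the p53-/- effect was -0.62 for the brightest reporter and -0.53 for the second brightest, and the difference was not tested because Sdhb was chosen for its Ha-RasV12 effect. Ucp1, a brown fat marker, differed in its knockout effect between the cell kinds by 3.35 (limma interaction, adjusted p = 0.0013), higher in 3 of 3 Ha-RasV12 replicates. Col3a1, a fibroblast collagen, differed by -2.34 (limma interaction, adjusted p = 0.042).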

How the results depend on the processing

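The effects of the 7 genes on the reporters shown kept their value within 1 SD of the replicates under every alternative run. For most alternatives this was fixed in advance. Leaving out 1 replicate cannot move a mean of 3 by as much as 1 SD. The fits without the block, with arrays as independent, with a dye term or without dim reporters return the same difference by design. Only quantile normalization and median centring could have moved these values further. No control level of these reporters passed the threshold under any alternative. Counts of calls moved more. Without the replicate block the knockout effect was called for 19 reporters in p53-/- and 1038 in Ha-RasV12 cells (28 and 3061 with it), its difference for 137 (568 with it), and 1 list gene in Ha-RasV12 cells. With the 12 arrays as independent these were 167, 10045, 3473 and 25; with a dye term and an estimated correlation 109, 7662, 2317 and 20. With the letter as a replicate block across backgrounds, which the check of pairing does not bear out, the difference was called for 418 and the control level for 6401 reporters (4926 without it). Leaving out 1 replicate gave 0 to 114, 1298 to 5858, 57 to 2252 and 1666 to 10072 reporters for these 4 comparisons in turn, and 0 to 1, 1 to 9 and 0 to 6 list genes for p53-/- effect, Ha-RasV12 effect and control level. Without Ha-RasV12 replicate A the counts were 114, 5858, 2252 and 10072. Leaving out p53-/- replicate A, B or C gave 0 calls in p53-/- cells (2429, 2638 and 2416 at an unadjusted p under 0.05). Averaging all reporters of a gene left 1 list gene in Ha-RasV12 cells. The 2 list genes of the control level became 1 with quantile normalization or centring and 4 with the reporter of smallest p. Lower and higher calls of the control level were 3587 and 1339 as deposited, 3126 and 2377 after quantile normalization, and 2606 and 2654 after centring. Of member reporters, the authors list 17 in p53-/- cells and the fit here calls 7. The cause of these changes was not tested, except that fewer samples are fitted when a replicate is left out. Signal over background limits Cox7a1, Ndufa13, dim Taz reporters and 2 of 3 Dnajc19 reporters.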
